A study of Homo sapiens with 4 samples.

Results

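Described here are 37 genes of autophagy and the lysosome in UMUC3 and SW780, both human bladder cancer cell lines, after knockdown of SCD1, the desaturase (gene SCD) that makes monounsaturated fatty acids. The genes were taken by symbol from a list and matched on the gene name in the table of each line. All 37 were found among the 30148 genes of the UMUC3 table and the 17752 genes of the SW780 table, of which 15415 are in both. They comprise 16 genes of the autophagy machinery, 19 lysosomal genes and 2 transcription factors, TFEB and TFE3. The machinery and the lysosomal genes are given separately.

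There were 4 groups with 1 library each. UMUC3 shSCD1 and SW780 shSCD1 are labelled with the genotype SCD1 knockdown, made with a lentivirus, and UMUC3 shNT and SW780 shNT with the genotype WT. UMUC3 cells were grown in MEM and SW780 cells in DMEM, both with serum and antibiotics. The labels do not say what the shNT cells carried, or from how many cultures, hairpins or clones each library came. Because no group has a replicate, no difference within a line has a test. The spread between cultures is unknown, and intervals given with a fold are exact 95% Clopper-Pearson intervals that cover counting error only. They take reads as independent molecules, which reads with no molecular identifier are not.

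Levels are CPM (counts of a gene scaled to the library's total), and a log2 ratio is the log2 of (shSCD1 CPM + 1) over (shNT CPM + 1), so that a positive value means a higher level in the shSCD1 library. Folds are the plain ratio of CPM. The tables name their libraries first and second. The second was read as shSCD1 because the table carries that name and its fold change runs second over first; were it the other way round, every direction below would turn round. SCD itself had 59.6 CPM in the UMUC3 shSCD1 library and 264 CPM in the UMUC3 shNT library, and 92.1 CPM in the SW780 shSCD1 library and 592 CPM in the SW780 shNT library. These are log2 ratios of −2.13 and −2.67.

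Libraries held between 22818368 and 34087871 reads. Mitochondrial transcripts took 6.02% of reads in UMUC3 shSCD1 and 4.23% in UMUC3 shNT, summed over 37 genes. In the SW780 shSCD1 and shNT libraries they took 4.51% and 4.33%, summed over only 13 genes, so these shares do not compare the lines. Among the 13 urothelial and epithelial markers listed, UMUC3 kept 6 at 1 CPM or more in either library, with a summed level of 263 CPM in shSCD1 and 535 CPM in shNT. EPCAM, CDH1, ELF3 and UPK3A were not analysed in UMUC3, and KRT19 had 0 reads in both of its libraries. In SW780, 12 of the 13 were kept, with sums of 10279 CPM in shSCD1 and 12483 CPM in shNT, and 10 were lower in shSCD1. Of 5 mesenchymal markers, all 5 were kept in UMUC3, with sums of 2656 CPM in shSCD1 and 3343 CPM in shNT, and 3 in SW780, with sums of 803 CPM in shSCD1 and 301 CPM in shNT. Of 5 fibroblast markers, 3 were kept in SW780, with sums of 249.8 CPM in shSCD1 and 178 CPM in shNT, and 2 in UMUC3, with sums of 1.04 CPM in shSCD1 and 2.89 CPM in shNT; DCN and PDGFRB had 0 reads in SW780. The blood markers measured were below 1 CPM apart from CD68, which lysosomes of other cells also carry (47.5 CPM in shSCD1 and 67.0 CPM in shNT in UMUC3, 12.6 and 17.4 CPM in the same order in SW780). The 3 endothelial markers reached at most 3.91 CPM. The part of these markers in the values below was not tested. In bulk RNA, fewer cells with a transcript and less of it per cell cannot be told apart.

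Autophagy wraps cytoplasm in a double membrane and delivers it to the lysosome, an acidic organelle whose hydrolases break it down. A kinase complex starts the membrane, a lipid kinase complex marks it with phosphatidylinositol 3-phosphate, and a ubiquitin-like conjugation system attaches ATG8 proteins to it, to which cargo receptors bind. TFEB and TFE3 are related transcription factors that bind E-box elements near the starts of many lysosomal and autophagy genes; their activity is controlled largely by phosphorylation and nuclear entry, which transcript levels do not show.

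Across the 37 genes, the SW780 libraries were nearly alike and the UMUC3 libraries differed more. In UMUC3, ATP6V1H, ATP6AP1 and CTSB were at least 1.5-fold lower in the shSCD1 library on the log2(CPM + 1) scale, which is 3 of 37 genes, against 6.86% of all 14063 genes kept at 1 CPM or more in either library. None of the 37 was at least 1.5-fold higher, against 10.1% of all genes. The count is 5 with 0.1 CPM added in place of 1 and 7 with the log2 fold change in the authors' deposited table. In SW780, 0 of 37 were at least 1.5-fold higher, against 5.05% of all 12880 genes kept, and 0 were at least 1.5-fold lower, against 3.70%. None reached 2-fold in either line on the log2(CPM + 1) scale, although the plain fold of TFEB in UMUC3, from few reads, was 0.498. On the same log2 scale 2.47% of all genes were 2-fold higher and 2.18% lower in UMUC3, while 1.48% were higher and 1.06% lower in SW780. The median log2 ratio of the 37 was −0.15 in UMUC3, where that of all genes was 0.04, and −0.00 in SW780, where that of all genes was −0.01.

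**Figure D1:**
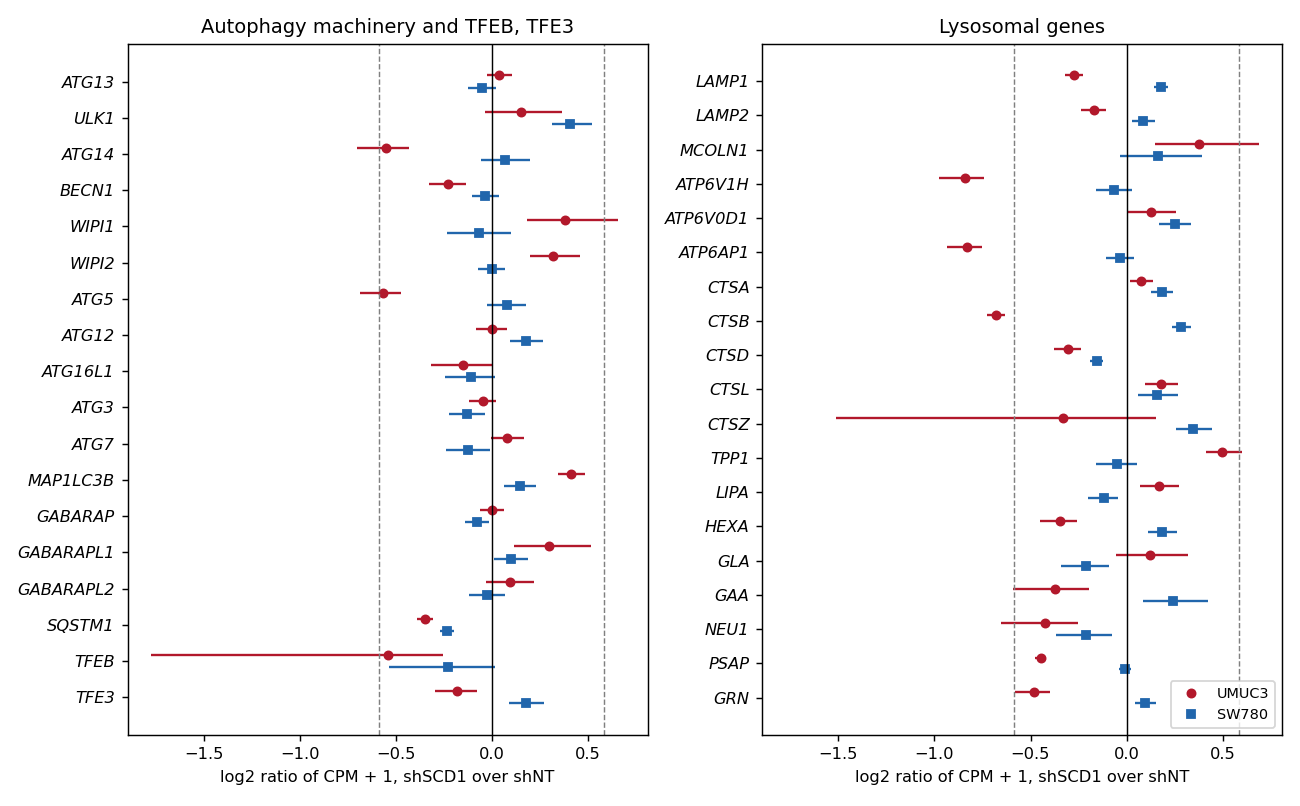
Log2 ratio of shSCD1 to shNT (log2 of CPM + 1, x axis) for each of the 37 genes (y axis, ordered by role) in UMUC3 and SW780. Points are single pairs of libraries, bars are 95% counting intervals of the plain fold, without the added 1 CPM, and the widest bars belong to TFEB and CTSZ in UMUC3, with 27 and 25 reads in the shSCD1 library.

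Within the autophagy machinery of UMUC3, 9 of 16 genes had a ratio above 0 and 7 below, with a range from −0.57 to 0.41 and a median log2 ratio of 0.02, which turned to −0.02 when centred on all genes and to −0.06 with the fold change in the authors' deposited table. Summed over the 16 genes, the level was 1334 CPM in the shSCD1 library and 1404 CPM in the shNT library. SQSTM1 alone, at 310.3 CPM in shSCD1 and 395 CPM in shNT, differed by more than the sum did. The other machinery genes together were therefore not lower. In SW780, 6 were above 0 and 10 below, the median was −0.03, and the range ran from −0.23 to 0.41. There the sum was 1429 CPM in shSCD1 and 1480 CPM in shNT. SQSTM1 again differed by more than the sum did, at 365 CPM in shSCD1 and 429 CPM in shNT.

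Of the initiation complex, ULK1, its kinase, had 60.7 CPM in the SW780 shSCD1 library and 45.5 CPM in the SW780 shNT library. This 1.34-fold difference (interval 1.24 to 1.43) was the highest ratio of the 37 genes in SW780. In UMUC3, ULK1 was lower in level, at 16.1 CPM in shSCD1 and 14.4 CPM in shNT, and the counting interval of its fold (0.974 to 1.29) included 1. ATG13, the regulatory subunit that binds ULK1, differed little in either line: 136 CPM in shSCD1 and 133 CPM in shNT in UMUC3, and 103 CPM in shSCD1 and 107 CPM in shNT in SW780.

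BECN1 and ATG14 are subunits of the lipid kinase complex that nucleates the autophagosome, and ATG14 directs that complex to the autophagosome. Both were lower in the UMUC3 shSCD1 library. ATG14 had 27.0 CPM in UMUC3 shSCD1 and 40.1 CPM in UMUC3 shNT, a fold of 0.675 (interval 0.615 to 0.741). BECN1 had 59.4 CPM in shSCD1 and 69.7 CPM in shNT there, a fold of 0.852 (0.797 to 0.912). In SW780 neither counting interval excluded 1, with ATG14 at 34.6 CPM in shSCD1 and 32.9 CPM in shNT and BECN1 at 112 and 115 CPM in the same order.

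WIPI1 and WIPI2 bind phosphatidylinositol 3-phosphate, and WIPI2 brings the conjugation enzymes to the membrane. In UMUC3 they stood on the other side of 0 from BECN1 and ATG14. WIPI1 had 13.3 CPM in shSCD1 and 9.95 CPM in shNT, and WIPI2 had 42.3 CPM in shSCD1 and 33.7 CPM in shNT, folds of 1.33 and 1.25 with intervals above 1. In SW780, WIPI1 had 19.8 CPM in shSCD1 and 20.8 CPM in shNT, and WIPI2 had 112 CPM in both libraries. WIPI1 shares 28.1% of its exonic bases with ARSG on the opposite strand, and the sources used here do not say whether the authors' counting used strand.

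The conjugation system joins ATG12 to ATG5, and this pair with ATG16L1 acts as the ligase that lipidates ATG8 proteins, after ATG7 (the activating enzyme) and ATG3 (the transfer enzyme) have handed them on. ATG5 had the lowest ratio of the machinery in UMUC3, with 42.5 CPM in shSCD1 and 63.5 CPM in shNT, a fold of 0.669 (interval 0.621 to 0.721). In SW780 it had 55.8 CPM in shSCD1 and 52.8 CPM in shNT, with an interval (0.984 to 1.13) that included 1. ATG12, its partner, was level in UMUC3 at 92.2 CPM in both libraries, and had 76.6 CPM in shSCD1 and 67.6 CPM in shNT in SW780. ATG16L1 had 22.7 CPM in shSCD1 and 25.3 CPM in shNT in UMUC3 and 32.3 and 35.0 CPM in the same order in SW780, and both counting intervals included 1. The enzymes ATG7 and ATG3 had log2 ratios of 0.08 and −0.05 in UMUC3 and −0.12 and −0.13 in SW780. ATG7 shares 18.1% of its exonic bases with VGLL4 on the opposite strand, and BECN1 17.1% with neighbours on the opposite strand.

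The ATG8 family members measured are MAP1LC3B (LC3B), the usual marker of autophagosomes, and GABARAP, GABARAPL1 and GABARAPL2. MAP1LC3B (chr16:87383995-87404779, GRCh38) had 148 CPM in UMUC3 shSCD1 and 111 CPM in UMUC3 shNT, a fold of 1.33 (interval 1.27 to 1.40). In SW780 it had 83.5 CPM in shSCD1 and 75.5 CPM in shNT, a fold of 1.11 (1.04 to 1.17). Both lines had a higher CPM of it in the shSCD1 library. Its near-identical copy MAP1LC3B2 took at most 82 reads in any library. GABARAPL1 was also higher in both shSCD1 libraries, at 17.5 CPM in shSCD1 and 14.1 CPM in shNT in UMUC3, and 74.6 CPM in shSCD1 and 69.6 CPM in shNT in SW780. GABARAP had 161 CPM in both UMUC3 libraries, and 132 CPM in shSCD1 and 139 CPM in shNT in SW780. Some 55.7% of its exonic bases lie in other gene models (AC120057.2 on the same strand), which leaves its counts uncertain. GABARAPL2 had 41.0 CPM in shSCD1 and 38.4 CPM in shNT in UMUC3, and 63.6 CPM in shSCD1 and 64.7 CPM in shNT in SW780. The 4 genes summed to 368 CPM in shSCD1 and 325 CPM in shNT in UMUC3, and to 354 and 349 CPM in the same order in SW780.

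Per kilobase of exon, the only scale on which genes are compared here, GABARAP was the most abundant ATG8 transcript in all 4 libraries. Its levels were 71.3 CPM per kb in UMUC3 shSCD1 and 71.2 in UMUC3 shNT, and 58.3 and 61.5 CPM per kb in the SW780 shSCD1 and shNT libraries. MAP1LC3B came second in UMUC3, at 27.8 CPM per kb in shSCD1 and 20.9 in shNT, and last of the family in SW780, at 15.7 in shSCD1 and 14.2 in shNT. GABARAPL1 was the scarcest in UMUC3, at 4.28 CPM per kb in shSCD1 and 3.44 in shNT, against 18.3 and 17.0 in the SW780 shSCD1 and shNT libraries.

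SQSTM1 encodes p62, a cargo receptor that binds ubiquitin and ATG8 proteins and is itself degraded by autophagy. It was lower in both shSCD1 libraries. The UMUC3 libraries had 310.3 CPM in shSCD1 and 395 CPM in shNT, a fold of 0.786 (interval 0.764 to 0.809). The SW780 libraries had 365 CPM in shSCD1 and 429 CPM in shNT, a fold of 0.851 (0.829 to 0.873). By log2 ratio SQSTM1 was the lowest of the 37 genes in SW780, although the plain fold of TFEB there was lower, at 0.836. Some 22.0% of the exonic bases of SQSTM1 are shared with genes on the opposite strand (MRNIP and MGAT4B). MAP1LC3B and SQSTM1 thus stood on opposite sides of 0 in both lines.

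**Figure D2:**
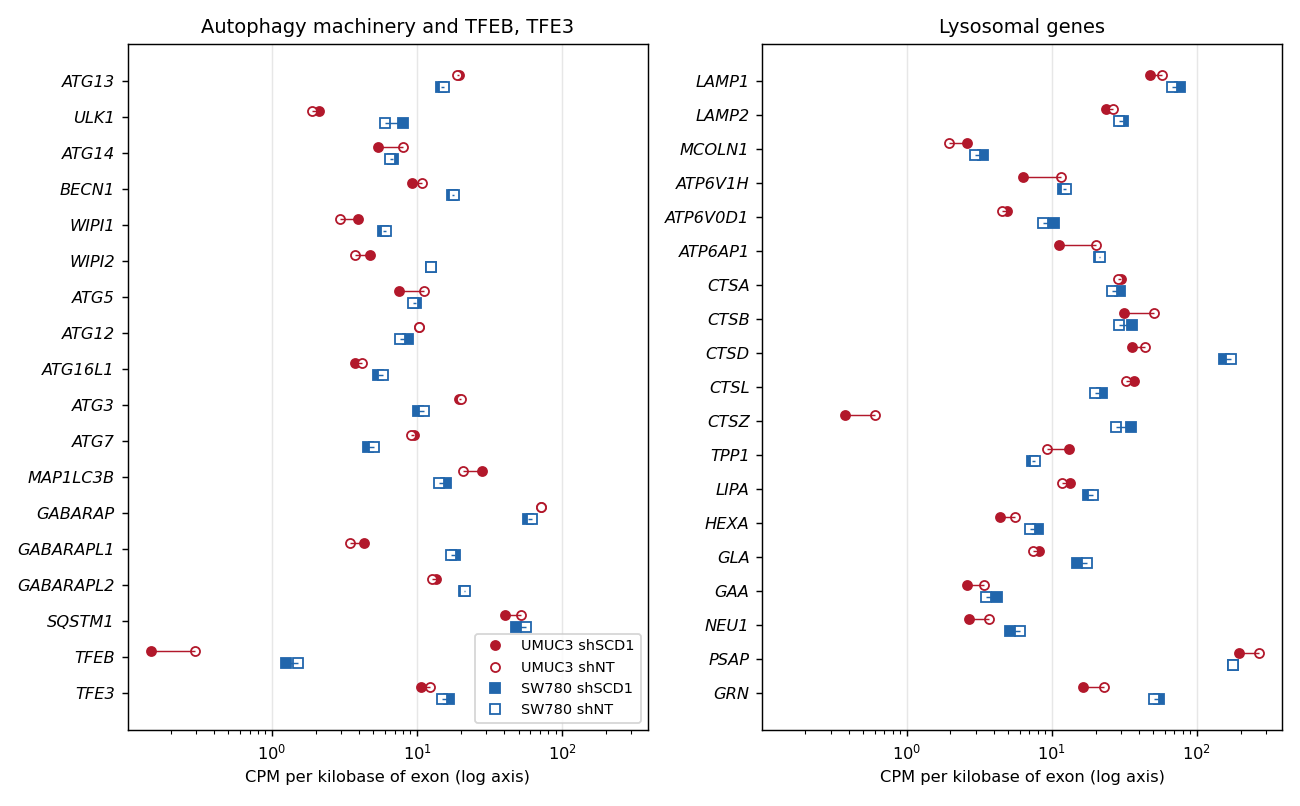
CPM per kilobase of exon (log axis) of each of the 37 genes in the shSCD1 and shNT libraries of UMUC3 and SW780, 1 library per group. Points of the same gene lie close together in SW780, while CTSZ and TFEB fall below 1 CPM per kb in both UMUC3 libraries.

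TFEB was hardly detected in UMUC3, where 27 reads in the shSCD1 library (0.830 CPM) stood against 38 in the shNT library (1.67 CPM). The plain fold was 0.498 with an interval from 0.293 to 0.838, so its size is poorly fixed at this depth. SW780 had more TFEB, with 7.08 CPM in shSCD1 and 8.48 CPM in shNT, and the interval of its fold (0.690 to 1.01) included 1. TFE3 was measured far above that depth limit, with 45.9 CPM in shSCD1 and 52.2 CPM in shNT in UMUC3 and 71.5 CPM in shSCD1 and 63.1 CPM in shNT in SW780. Its ratio lay below 0 in UMUC3 (−0.18) and above 0 in SW780 (0.18), with both counting intervals excluding 1. Per kilobase, TFEB was the lowest of the 37 genes in all 4 libraries, at 0.147 CPM per kb in UMUC3 shSCD1 and 0.295 in UMUC3 shNT, and at 1.25 and 1.5 CPM per kb in the SW780 shSCD1 and shNT libraries. TFE3 had 10.7 and 12.2 CPM per kb in the UMUC3 shSCD1 and shNT libraries, and 16.7 and 14.7 in those of SW780.

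The site that TFEB and TFE3 bind centres on the E-box CACGTG, and its longer form TCACGTGA is the core of the element shared by many lysosomal genes. Both motifs are their own reverse complement, so a match counts for both strands, and every TCACGTGA holds a CACGTG. They were searched in RefSeq windows (GRCh38.p14) from 250 bases before to 50 bases after each annotated start. Windows were given for 32 of the 37 genes, 40 windows in all, with none for CTSB, HEXA, LAMP2, ATP6V1H and PSAP. CACGTG was in 9 of the 40 windows (22.5%), against 7.26% of all 35116 windows, and TCACGTGA in 6 (15%), against 0.980%. The lysosomal genes held most of these, with CACGTG in 7 of 16 windows (43.8%) and TCACGTGA in 5 (31.3%), while the autophagy machinery had 2 and 1 of 20 windows and TFEB and TFE3 none of 4. The genes with CACGTG were ATG3, ATG14, LAMP1, CTSA, CTSD, GAA, NEU1, MCOLN1 and ATP6V0D1. TCACGTGA was in all of these but ATG14, CTSD and NEU1. The motifs were searched because genes of the list are known from the literature as targets of TFEB and TFE3. Their excess over all windows is therefore no independent result.

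Shown here are 220 bases, 200 before the start and 20 from it on, read 5′ to 3′ on the gene's strand with every CACGTG in capitals. MCOLN1, ATG14, ATP6V0D1, NEU1, GAA and CTSD are among the E-box genes with the highest and lowest ratios in the 2 lines, and LAMP1 was added after its values were seen because it held the most E-boxes, 6 of them. The windows are MCOLN1 at chr19:7522424-7522643 (plus strand), ATG14 at chr14:55411811-55412030 (minus), ATP6V0D1 at chr16:67481138-67481357 (minus), NEU1 at chr6:31862802-31863021 (minus), GAA at chr17:80101381-80101600 (plus), CTSD at chr11:1763908-1764127 (minus) and LAMP1 at chr13:113297039-113297258 (plus).
MCOLN1: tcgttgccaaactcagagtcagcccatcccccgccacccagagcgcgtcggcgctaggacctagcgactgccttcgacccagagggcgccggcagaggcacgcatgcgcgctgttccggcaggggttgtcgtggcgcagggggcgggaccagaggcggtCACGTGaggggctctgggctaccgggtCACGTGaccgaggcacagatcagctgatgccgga
ATG14: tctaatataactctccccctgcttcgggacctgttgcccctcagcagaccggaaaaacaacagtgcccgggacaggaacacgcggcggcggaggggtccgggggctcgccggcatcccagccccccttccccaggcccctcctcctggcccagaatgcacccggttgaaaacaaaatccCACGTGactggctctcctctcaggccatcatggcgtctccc
ATP6V0D1: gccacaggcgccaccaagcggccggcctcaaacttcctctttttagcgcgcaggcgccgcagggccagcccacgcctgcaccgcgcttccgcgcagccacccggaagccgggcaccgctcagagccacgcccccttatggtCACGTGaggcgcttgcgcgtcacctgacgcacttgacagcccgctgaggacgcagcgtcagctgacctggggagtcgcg
NEU1: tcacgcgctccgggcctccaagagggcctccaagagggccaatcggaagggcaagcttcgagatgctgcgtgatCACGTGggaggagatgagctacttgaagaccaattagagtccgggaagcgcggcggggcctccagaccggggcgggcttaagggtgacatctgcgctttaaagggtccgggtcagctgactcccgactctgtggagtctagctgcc
GAA: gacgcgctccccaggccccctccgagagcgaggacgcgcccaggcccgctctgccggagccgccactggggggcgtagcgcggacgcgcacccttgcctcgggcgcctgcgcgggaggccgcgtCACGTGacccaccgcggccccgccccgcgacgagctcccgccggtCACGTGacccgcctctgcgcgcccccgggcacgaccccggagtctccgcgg
CTSD: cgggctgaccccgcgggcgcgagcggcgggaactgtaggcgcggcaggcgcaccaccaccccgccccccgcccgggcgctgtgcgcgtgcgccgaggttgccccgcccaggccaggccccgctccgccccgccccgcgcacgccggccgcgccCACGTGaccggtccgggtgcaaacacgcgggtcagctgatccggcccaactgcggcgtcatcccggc
LAMP1: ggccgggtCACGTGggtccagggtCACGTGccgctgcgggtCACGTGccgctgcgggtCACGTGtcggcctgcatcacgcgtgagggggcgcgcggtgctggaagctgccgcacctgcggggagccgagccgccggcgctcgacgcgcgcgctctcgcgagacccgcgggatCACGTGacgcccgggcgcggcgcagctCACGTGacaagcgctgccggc

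In these stretches MCOLN1 and GAA each held 2 E-boxes, both in the longer form, and ATP6V0D1 held 1 in that form. ATG14, NEU1 and CTSD held 1 E-box each, with only 1 of the 2 flanking bases of the longer form. The genes with the longer form had different ratios. In UMUC3, MCOLN1 had a log2 ratio of 0.37, ATP6V0D1 of 0.13, CTSA of 0.07, ATG3 of −0.05, LAMP1 of −0.27 and GAA of −0.37, a median of 0.01 over 3 ratios above 0 and 3 below; CTSA is at −0.01 in the authors' deposited table. In SW780, 5 of the 6 were above 0, with a median of 0.18 and ATG3 as the one below. Over all genes whose window holds TCACGTGA, 45.4% of 229 genes were above 0 in UMUC3 (median −0.05) and 51.9% of 233 in SW780 (median 0.01). Among all genes with a window, 53.0% of 10161 were above 0 in UMUC3 (median 0.03). In SW780 the share was 48.3% of 10363 (median −0.01), and these differences were not tested. A match describes the letters of the window and is no evidence of binding.

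**Figure D3:**
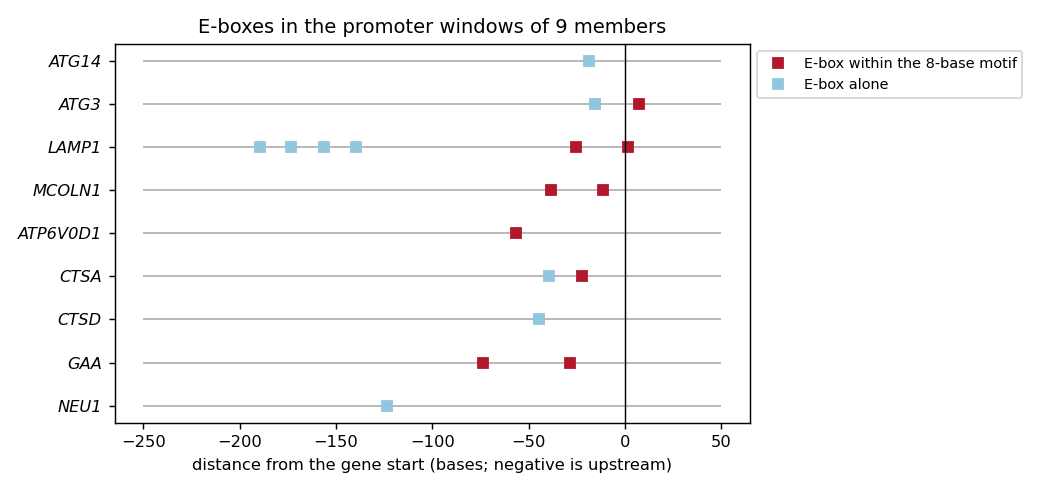
Positions of CACGTG (distance from the annotated start in bases, x axis) in the RefSeq promoter windows of the 9 genes that hold it, with TCACGTGA marked separately. Each row is 1 gene; LAMP1 holds 6 matches, and 6 of the 9 genes hold the longer form.

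Among the 19 lysosomal genes, 7 had a ratio above 0 and 12 below in UMUC3, with a median log2 ratio of −0.30 and a range from −0.84 to 0.50. Their summed level was 2094 CPM in the UMUC3 shSCD1 library and 2623 CPM in the UMUC3 shNT library, or 0.209% and 0.262% of all reads. In SW780, 11 were above 0 and 8 below, with a median of 0.10 and a range from −0.21 to 0.34. There the sum was 2997 CPM in shSCD1 and 2885 CPM in shNT. Of all genes, 45.7% were below 0 in UMUC3 and 51.5% in SW780.

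The 3 V-ATPase genes belong to the proton pump that acidifies the lysosome. ATP6V1H, a regulatory subunit of its cytosolic V1 sector, had the lowest log2 ratio of the 37 in UMUC3. It had 32.5 CPM in shSCD1 and 58.9 CPM in shNT, a fold of 0.551 (interval 0.508 to 0.598). By plain fold TFEB, with few reads, was lower there, at 0.498. ATP6AP1 (chrX:154428632-154436516, GRCh38), an accessory protein of pump assembly, was next to ATP6V1H by log2 ratio. It had 54.5 CPM in shSCD1 and 97.7 CPM in shNT, a fold of 0.557 (0.523 to 0.594). Neither ATP6V1H nor ATP6AP1 shared exonic bases with another gene. In SW780 the same genes were level: ATP6V1H had 60.8 CPM in shSCD1 and 63.6 CPM in shNT, ATP6AP1 had 103 and 105 CPM in the same order, and both counting intervals included 1. ATP6V0D1, of the membrane-bound V0 sector, was higher in both shSCD1 libraries, at 40.4 CPM in shSCD1 and 36.9 CPM in shNT in UMUC3 and 84.9 CPM in shSCD1 and 71.3 CPM in shNT in SW780.

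The proteases showed no common direction in UMUC3. CTSB (cathepsin B) had 234 CPM in UMUC3 shSCD1 and 374 CPM in UMUC3 shNT, a fold of 0.624 (interval 0.605 to 0.644). In SW780 it stood the other way, with 264 CPM in shSCD1 and 216 CPM in shNT, a fold of 1.22 (1.18 to 1.26). TPP1, an aminopeptidase lost in a childhood ceroid lipofuscinosis, had the highest ratio of the 37 in UMUC3, with 86.6 CPM in shSCD1 and 61.0 CPM in shNT (fold 1.42, interval 1.33 to 1.51), and was level in SW780 at 48.1 CPM in shSCD1 and 49.9 CPM in shNT. Some 14.4% of its exonic bases lie in other gene models.

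CTSD (cathepsin D), the main aspartic protease, was lower in both shSCD1 libraries, at 111 CPM in shSCD1 and 138 CPM in shNT in UMUC3 and 479.9 CPM in shSCD1 and 535 CPM in shNT in SW780. However, 52.7% of its exonic bases also belong to other genes, among them AC068580.4 on the same strand, which took 72 reads in SW780 shSCD1 and 702 in SW780 shNT, and 122 and 74 reads in the UMUC3 shSCD1 and shNT libraries, so reads of this stretch may have been divided between them. CTSL (cathepsin L) was slightly higher in both shSCD1 libraries, with 86.6 CPM in shSCD1 and 76.3 CPM in shNT in UMUC3 and 52.7 CPM in shSCD1 and 47.1 CPM in shNT in SW780. CTSA, the carboxypeptidase that also protects neuraminidase, had 176 CPM in shSCD1 and 167 CPM in shNT in UMUC3 and 172 CPM in shSCD1 and 152 CPM in shNT in SW780. It shares 28.5% of its exonic bases with genes on the opposite strand. CTSZ (cathepsin Z) separated the lines rather than the groups: it had 25 reads in UMUC3 shSCD1 and 28 in UMUC3 shNT, against 71.6 CPM in SW780 shSCD1 and 56.2 CPM in SW780 shNT, a fold of 1.27 (1.19 to 1.36) within SW780.

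The glycosidases HEXA (a subunit of beta-hexosaminidase), GAA (acid alpha-glucosidase), GLA (alpha-galactosidase) and NEU1 (neuraminidase) and the lipase LIPA (lysosomal acid lipase, which hydrolyses cholesteryl esters and triglycerides) were measured. LIPA, the one of these that acts on neutral lipid, had 65.2 CPM in shSCD1 and 58.0 CPM in shNT in UMUC3, a fold of 1.13 (interval 1.05 to 1.21). It stood the other way in SW780, with 86.5 CPM in shSCD1 and 94.1 CPM in shNT, a fold of 0.919 (0.870 to 0.971). HEXA had 55.2 CPM in shSCD1 and 70.5 CPM in shNT in UMUC3, against 101 CPM in shSCD1 and 89.0 CPM in shNT in SW780. HEXA thus differed in opposite directions, and 16.3% of its exonic bases lie in other genes. GAA did the same at low levels, with 13.4 CPM in shSCD1 and 17.7 CPM in shNT in UMUC3 and 21.7 CPM in shSCD1 and 18.2 CPM in shNT in SW780. NEU1 was lower in both shSCD1 libraries, at 13.0 CPM in shSCD1 and 17.7 CPM in shNT in UMUC3 and 24.8 CPM in shSCD1 and 28.9 CPM in shNT in SW780. GLA had 18.5 CPM in shSCD1 and 16.9 CPM in shNT in UMUC3, with an interval including 1, and 34.2 CPM in shSCD1 and 39.7 CPM in shNT in SW780.

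PSAP and GRN encode precursors, prosaposin and progranulin, which are cut in the lysosome into activators of sphingolipid breakdown and into granulins. In UMUC3 both were lower in the shSCD1 library. PSAP had 634 CPM in shSCD1 and 864 CPM in shNT there, a fold of 0.734 (interval 0.720 to 0.749), and GRN had 60.1 CPM in shSCD1 and 84.4 CPM in shNT, a fold of 0.712 (0.668 to 0.759). Neither was lower beyond counting error in SW780: PSAP had 569.5 CPM in shSCD1 and 573 CPM in shNT, and GRN had 200.4 CPM in shSCD1 and 187 CPM in shNT. PSAP was the most abundant of the 37 transcripts per kilobase in every library, at 196 CPM per kb in UMUC3 shSCD1 and 267 in UMUC3 shNT, and at 176 and 177 CPM per kb in the SW780 shSCD1 and shNT libraries.

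LAMP1 and LAMP2 are the main glycoproteins of the lysosomal membrane, and MCOLN1 is its calcium channel. LAMP1 had 271 CPM in shSCD1 and 327 CPM in shNT in UMUC3, and 439 CPM in shSCD1 and 387 CPM in shNT in SW780. LAMP2 had 130.4 CPM in shSCD1 and 147 CPM in shNT in UMUC3, and 169.9 CPM in shSCD1 and 159.9 CPM in shNT in SW780. Both were thus lower in the shSCD1 library of UMUC3 and higher in that of SW780, each with a counting interval that excluded 1. MCOLN1 was higher in both shSCD1 libraries, at 10.3 CPM in shSCD1 and 7.71 CPM in shNT in UMUC3 (fold 1.33, interval 1.11 to 1.61) and 13.3 CPM in shSCD1 and 11.8 CPM in shNT in SW780, where the interval included 1.

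The GFOLD score pulls a log2 fold change towards 0 the more, the fewer reads a gene has. By its sign in the authors' deposited table, 11 of 19 lysosomal genes were below 0 and 2 above in UMUC3, and 7 and 3 of the 16 machinery genes. For SW780 the authors' deposited table has 4 lysosomal genes below 0 and 10 above, and 2 and 4 machinery genes. Over all genes kept, GFOLD was above 0 for 25.8% and below 0 for 34.9% in UMUC3, and for 25.7% and 26.0% in SW780. Since genes with many reads are pulled less, a closer background is the genes at 10 CPM or more in at least 1 library, a level chosen after the values were seen. Of these, 27.4% were above and 41.4% below 0 in UMUC3, against 5 above (14.3%) and 19 below (54.3%) of the 35 members at that level. In SW780, 26.7% were above and 29.3% below 0, against 15 (41.7%) and 6 (16.7%) of 36 members.

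Set side by side, the lines differed gene by gene. Of the 37 genes, 10 were lower and 7 higher in both shSCD1 libraries, 11 were higher in SW780 and lower in UMUC3, and 9 the other way. Among the lysosomal genes, 14 of 19 had a higher ratio in SW780 than in UMUC3, with a median difference of 0.26 on the log2 scale (SW780 minus UMUC3), and among the machinery 7 of 16, with a median difference of −0.08. No gene was at least 1.5-fold in size in both lines with opposite signs. LAMP1, LAMP2, CTSB, LIPA, HEXA, GAA, GRN and TFE3 had opposite signs with both counting intervals excluding 1. Across the 37 genes Pearson's r between the ratios of the lines was 0.06, a description of genes that share their libraries. These counts and r were not taken over all genes, so whether such a split is particular to the 37 is not known. Whether the knockdown acted differently in the lines was not tested, since a term for that difference leaves no residual degree of freedom.

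**Figure D4:**
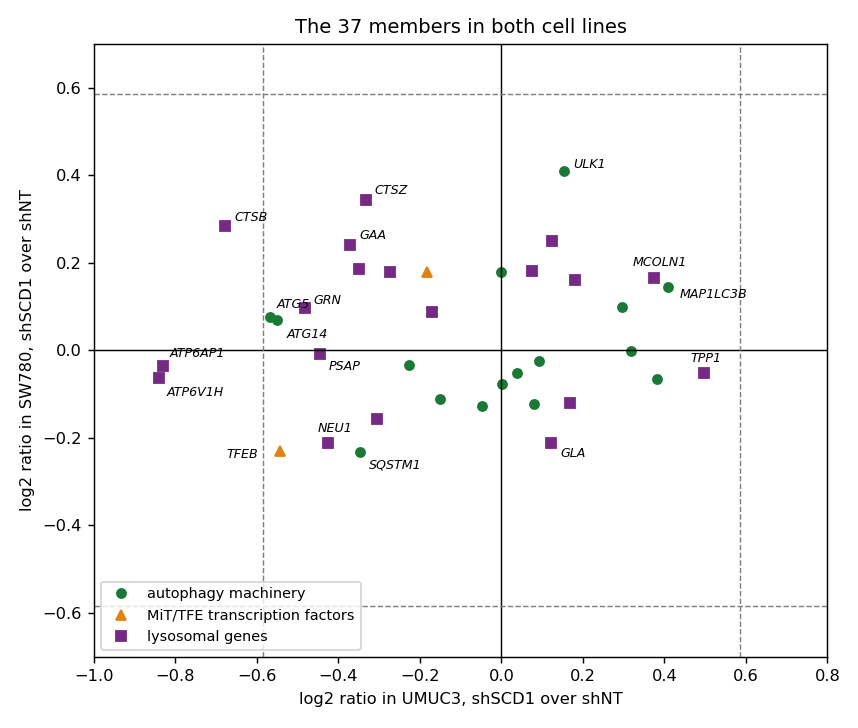
Log2 ratio of shSCD1 to shNT in UMUC3 (x axis) and in SW780 (y axis) for the 37 genes, coloured by group; dashed lines mark 1.5-fold. ATP6V1H, ATP6AP1 and CTSB lie left of the lower UMUC3 line, and no gene passes a SW780 line.

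A fit over all 4 libraries took the lines as 2 replicates of 1 effect, with cell line as a block. With limma on log2(CPM + 1) and Benjamini-Hochberg adjustment over the 13079 genes tested, 1 gene (0.00765%) was called, BEST1, lower in shSCD1 (log2 −4.94, adjusted p = 0.0118), and SCD had a log2 change of −2.40 with an adjusted p of 0.0641. None of the 37 genes was called by limma, and none had an unadjusted p under 0.05. Their smallest unadjusted p by limma was 0.0871, for ATP6V1H (log2 −0.45 ± 0.22 SE, adjusted p = 0.959). Its ratio lay below 0 in 2 of 2 lines, but the counting interval of its fold in SW780 (0.895 to 1.02) included 1. Next by p was SQSTM1 (log2 −0.29 ± 0.14 SE, adjusted p = 0.959 by limma), lower in 2 of 2 lines with both counting intervals below 1. By the edgeR quasi-likelihood test 0 of all genes were called (0%), and DESeq2 called 27 (0.206%), none of the 37 among them. SCD was among those that DESeq2 called (log2 −2.43, adjusted p = 8.42e-24 by DESeq2). Neither edgeR nor DESeq2 gave a member an unadjusted p under 0.05. Over all genes, 546 had an unadjusted p under 0.05 by limma, 426 by edgeR and 331 by DESeq2. With 1 residual degree of freedom a miss does not show that levels were alike.

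The levels of several genes differed between the lines by more than between the groups of a line; tables were scaled separately, so these are descriptions. CTSZ was 93.2-fold higher in SW780 than in UMUC3 between the shSCD1 libraries and 45.8-fold between the shNT libraries. TFEB was 8.54-fold and 5.09-fold higher in SW780, in the same order, GABARAPL1 4.27-fold and 4.95-fold, CTSD 4.31-fold and 3.88-fold, and ULK1 3.77-fold and 3.16-fold. In contrast, SW780 had 0.522 times the ATG3 level of UMUC3 between the shSCD1 libraries and 0.553 times between the shNT libraries. For CTSB the order of the lines depended on the group, with SW780 at 1.13 times UMUC3 in shSCD1 and 0.578 times in shNT.

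The members were then set among 164 other genes in 7 lists of the same pathways, written from textbook knowledge. In UMUC3, 148 of the 164 were kept, 61 with a ratio above 0 and 87 below (58.8%), and the list medians lay between −0.16 and −0.03. Of all genes there, 45.7% were below 0, with a median of 0.04. In SW780, 156 were kept, 84 above and 72 below (46.2%), and the list medians lay between −0.07 and 0.13. Of all genes in SW780, 51.5% were below 0, with a median of −0.01. In UMUC3, 7 of the 148 were at least 1.5-fold higher (all genes, 10.1%) and 13 at least 1.5-fold lower (all genes, 6.86%). In SW780, 5 of the 156 were higher (all genes, 5.05%) and 2 lower (all genes, 3.70%).

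Of the autophagy receptors, BNIP3, a mitochondrial receptor induced by low oxygen, had 78.5 CPM in UMUC3 shSCD1 and 188 CPM in UMUC3 shNT (log2 −1.25). In SW780 it had 14.7 CPM in shSCD1 and 9.36 CPM in shNT (log2 0.60), the highest of that list. NBR1, a receptor related to p62, had 191 CPM in shSCD1 and 318 CPM in shNT in UMUC3 (log2 −0.73), and 146 and 173 CPM in the same order in SW780. The highest receptor ratio in UMUC3 was that of RETREG1, a receptor for endoplasmic reticulum, at 3.04 CPM in shSCD1 and 0.920 CPM in shNT, and the lowest in SW780 that of TAX1BP1, at 189 CPM in shSCD1 and 248 CPM in shNT. Among the other machinery genes, the range in UMUC3 ran from ZFYVE1, a protein of the membranes from which autophagosomes arise (log2 −0.80), to ATG16L2 (0.60), a relative of ATG16L1. In SW780 it ran from ATG4A (−0.28) to ATG4D (0.41), both ATG8 proteases. For fusion of autophagosome and lysosome, EPG5, a tether, was lowest (−0.60) and RAB7A, the late endosomal GTPase, highest (0.19) in UMUC3, and the SNARE YKT6 (−0.15) and the adaptor PLEKHM1 (0.23) in SW780.

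Of the other lysosomal hydrolases, CTSO, a cysteine cathepsin, was the lowest of its list in UMUC3, at 1.48 CPM in shSCD1 and 4.34 CPM in shNT, and GM2A, the activator of ganglioside breakdown, the highest, at 53.9 CPM in shSCD1 and 33.6 CPM in shNT; in SW780 GM2A was lower in shSCD1 (log2 −0.35). In SW780 the extremes were SMPD1, acid sphingomyelinase, at 11.7 CPM in shSCD1 and 7.22 CPM in shNT (log2 0.63), and SIAE, a sialic acid esterase, at 34.1 CPM in shSCD1 and 44.9 CPM in shNT. SMPD1 stood the other way in UMUC3, at 7.34 CPM in shSCD1 and 12.4 CPM in shNT (log2 −0.68). Of the membrane and sorting genes, both relatives of MCOLN1 differed over 2-fold in 1 line. MCOLN2 had 6.18 CPM in UMUC3 shSCD1 and 1.84 CPM in UMUC3 shNT (log2 1.34), and stood the other way in SW780, at 5.6 CPM in shSCD1 and 8.68 CPM in shNT (log2 −0.55). MCOLN3 had 14.4 CPM in SW780 shSCD1 and 4.49 CPM in SW780 shNT, and only 5 reads in UMUC3 shSCD1 and 0 in UMUC3 shNT. LAMP3, an inducible relative of LAMP1, had 21.5 CPM in SW780 shSCD1 and 8.89 CPM in SW780 shNT (log2 1.19), and 2 and 0 reads in the UMUC3 shSCD1 and shNT libraries. CLN3, a membrane protein lost in a childhood ceroid lipofuscinosis, was the lowest of its list in both lines (log2 −0.68 in UMUC3 and −0.85 in SW780, where it had 22 reads in shSCD1 and 80 in shNT).

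Over the V-ATPase, members included, the UMUC3 values did not share the direction of ATP6V1H and ATP6AP1: 9 of 20 genes kept had a ratio above 0 and 11 below, with a median of −0.05. ATP6V1C2, a V1 subunit, was lowest with 1.17 CPM in UMUC3 shSCD1 and 8.46 CPM in UMUC3 shNT, and ATP6V1E2, another V1 subunit, highest with 20.4 CPM in shSCD1 and 9.90 CPM in shNT; their log2 ratios in SW780 were 0.30 and 0.29. In SW780, 14 of 21 were above 0, where 51.5% of all genes were below 0. A division into V0 and V1 was not among the planned lists. By that division, 8 of 9 V0 subunits were above 0 in SW780, with a summed level of 701 CPM in shSCD1 and 599 CPM in shNT, whereas V1 subunits split into 5 and 5. Examples are ATP6V0C, the proton-binding ring subunit, with 112 CPM in SW780 shSCD1 and 86.5 CPM in SW780 shNT, and ATP6V0E1, with 225 and 182 CPM in the same order. The highest of the list was ATP6V0A4, with 36 reads in SW780 shSCD1 and 22 in SW780 shNT, and the lowest ATP6V1D (log2 −0.14). In UMUC3 the V0 subunits kept split into 4 above and 4 below 0.

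Lysosomal nutrient sensing through mTORC1, the kinase that holds TFEB in the cytosol, had its extremes in UMUC3 at RRAGB (log2 −0.63) and FNIP2 (0.66) and in SW780 at SESN3 (−0.75) and RRAGD (0.72). RRAGB and RRAGD are Rag GTPases, FNIP2 is a partner of folliculin and SESN3 is a sestrin, and all act on mTORC1 at the lysosome. RRAGD had 10.3 CPM in SW780 shSCD1 and 5.84 CPM in SW780 shNT, and stood the other way in UMUC3, at 12.4 CPM in shSCD1 and 16.5 CPM in shNT (log2 −0.39). RRAGB also differed in sign, with a log2 ratio of 0.24 in SW780, and FNIP2 had 0.19 there. MITF, the third member of the TFEB family listed, had 8.79 CPM in shSCD1 and 9.64 CPM in shNT in UMUC3, and 37.9 CPM in shSCD1 and 50.4 CPM in shNT in SW780.

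**Figure D5:**
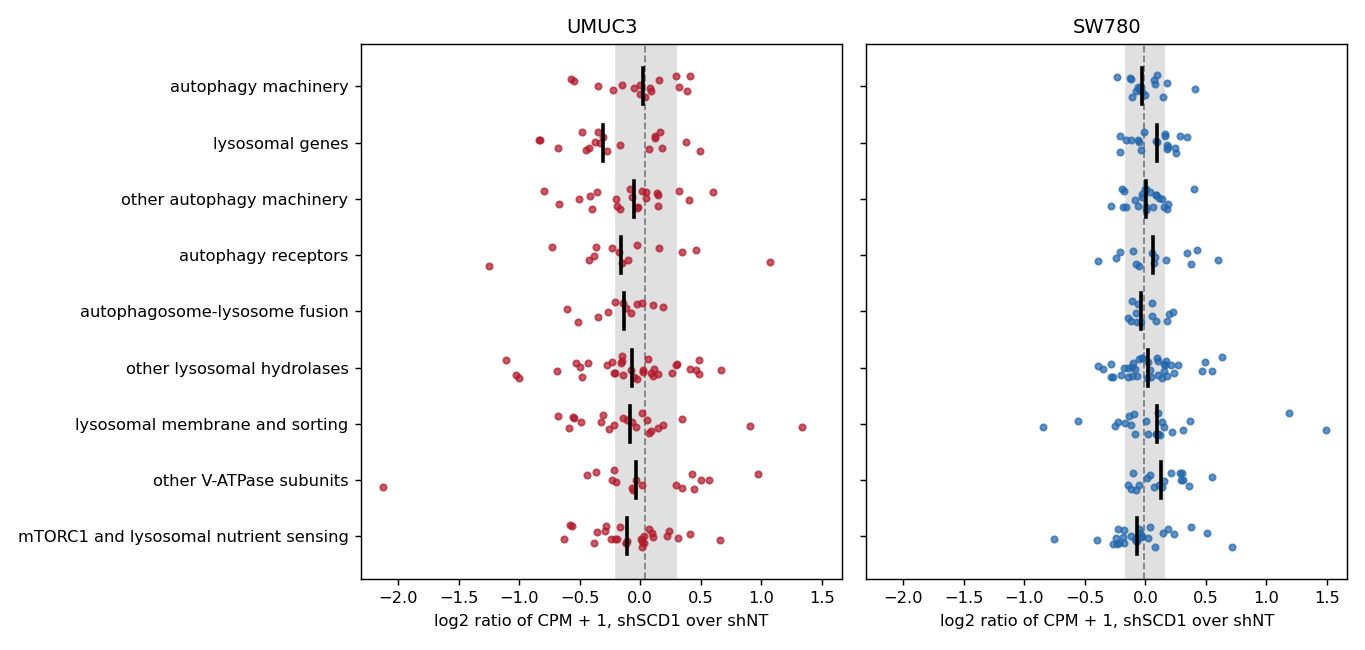
Log2 ratio of shSCD1 to shNT for the autophagy machinery, the lysosomal genes and the 7 wider lists in each line, without TFEB and TFE3. Points are genes, black bars the median of a list, the dashed line the median of all genes kept and the grey band their middle 50%.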

How the data were processed

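RNA of the 4 groups was made into TruSeq libraries and read on a NovaSeq, per the labels' protocols; hg38 is the build in the submitters' processing notes. The sources used here do not give the aligner, the counter, the annotation or the use of strand. The authors deposited 1 table per line. Per the file headers it holds GFOLD at a setting of 0.01, an empirical FDR (1 for every gene, not used), a log2 fold change and a pair of columns headed RPKM. The deposited signal in these columns is a read count scaled to 1 total per library, without gene length. At least 99.9% of values lay within 0.1 reads of a whole number of steps, so reads were recovered and CPM computed. The authors' log2 fold change has its own scaling (median offset from the plain log2 ratio −0.08 in UMUC3 and 0.005 in SW780).

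Genes below 1 CPM in both libraries of a line were left out. As the design foresaw for scaled counts, CPM was used, with no test within a line. The fit over both lines used limma 3.58.1, with edgeR 4.0.16 and DESeq2 1.42.0 on the recovered reads as alternatives. It was also run on simulated counts, in which each changed gene had the same fold in both lines. Positions and shared exonic bases came from GENCODE 29, and promoter windows from RefSeq (GRCh38.p14).

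All 37 members are named. Of the wider lists, genes past 2-fold with at least 5 CPM, or else the highest and lowest of a list, are named; NBR1, ATP6V0C, ATP6V0E1 and MITF were added after their values were seen, and a gene that the rule takes is not reported here. The members and lists were chosen with earlier results of these data known. Among markers, those with values beside a result are named. A gene at 0 reads is compatible with up to 3 at the same depth. Alternatives changed the added CPM, the filter, the scaling and the tool.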

Additional observations from a re-analysis of the deposited data

Results flagged for a closer look

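BNIP3 stood in opposite directions in the lines by at least 1.5-fold, with log2 ratios of shSCD1 to shNT of 0.60 in SW780 and −1.25 in UMUC3. SMPD1 did the same, with 0.63 in SW780 and −0.68 in UMUC3. Each value comes from 1 library per group, and the difference between the lines was not tested.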

How the results depend on the processing

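The number of the 37 genes at least 1.5-fold lower in UMUC3 shSCD1 than in shNT was 3. It was 5 with 0.1 CPM added in place of 1 (TFEB and CTSZ, both under 40 reads, came in), 5 with ratios centred on the median of all genes (ATG5 and ATG14 came in) and 7 with the authors' deposited log2 fold change (all 4 came in, in the authors' deposited table). ATP6V1H, ATP6AP1 and CTSB passed under each of these. For the genes called over both lines, limma with cell line as the replicate block called 1; it called 0 without the replicate block and 0 without the filter, edgeR called 0 and DESeq2 27. The 37 genes had 0 calls in each of these fits. Over the 9 alternatives, the lysosomal median stayed between −0.39 and −0.27 in UMUC3 and between 0.10 and 0.11 in SW780. GABARAP in UMUC3 and WIPI2 and PSAP in SW780, all within 0.01 of 0, changed sign with the scaling, as did ATG12, ATG7, ATG13 and CTSA in UMUC3 (the last 3 only with the authors' fold change). Leaving out a library leaves no value within a line. TFEB and CTSZ in UMUC3 drop out at a filter of 5 CPM.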
